A study of Rattus norvegicus with 12 samples.

Results

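Il1rl1 encodes ST2, the receptor for the alarmin interleukin 33, and it was followed here together with its ligand and the other interleukin 1 family genes in rat atrial fibroblasts. The set held 10 genes of the 22850 features in the tables, named by hand as Il1rl1, Il33, Il1r1, Il1r2, Il1rap, Il1rn, Il1a, Il1b, Il18 and Myd88. Il1rl1 was chosen because its counts were lower with HNG than with AngII alone, so every value of the set in a comparison that uses the AngII+HNG libraries is given as a description, and the number of members past the threshold there is given only beside the share of all genes. The cells were primary atrial fibroblasts of Sprague-Dawley rats 1 to 3 days old, separated from the other heart cells by differential adhesion, which enriches fibroblasts but does not sort them. All 3 groups received angiotensin II (AngII), the hormone that drives fibroblast activation, at 1 μmol/L for 48 h in medium with 2% FBS. The AngII group received nothing else. The AngII+HNG group received 10 μmol/L HNG, an analogue of the mitochondrial peptide humanin with a glycine in place of a serine, starting 1 h before AngII. The AngII+MOTS-c group received 5 μmol/L MOTS-c, another peptide encoded in mitochondrial DNA, also starting 1 h before AngII. No group without AngII was analysed here. Each group had 4 libraries, 12 in all.

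Receptors of the interleukin 1 family work in pairs. A ligand binds its own receptor, the pair recruits the shared co-receptor Il1rap, and the adaptor Myd88 then passes the signal through IRAK kinases to NF-kB and the p38 and JNK kinases. Several members act as brakes: Il1r2 binds interleukin 1 but lacks the signalling part, and Il1rn occupies Il1r1 without activating it. ST2 exists as a membrane receptor and as a shorter soluble decoy made from other transcripts of the same gene, and the soluble form is a known blood marker of heart failure and cardiac strain. The rat gene was first described in fibroblasts, and a proximal promoter used in fibroblasts is distinguished from a distal promoter used in blood cells.

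The sequence before the annotated start of Il1rl1 is shown because this gene had the largest difference with HNG among the 8 members that passed the filter on low counts, and because its neighbour Il1rl2 was lower as well. RefSeq places the 250 bases before that start at chr9:50203388-50203637 on the plus strand of GRCr8, and they read as follows, with 2 short stretches in capitals.
Il1rl1: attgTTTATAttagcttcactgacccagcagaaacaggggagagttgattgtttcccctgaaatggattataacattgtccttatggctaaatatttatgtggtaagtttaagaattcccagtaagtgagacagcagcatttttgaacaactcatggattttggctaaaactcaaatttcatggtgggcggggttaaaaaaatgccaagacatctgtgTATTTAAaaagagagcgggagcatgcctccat
The first capitals are the TATA box letters TATAAA read on the minus strand, and the second are TATTTAA on the plus strand, from position -32 to -26 counted from the start. The windows of 250 bases before the start were searched on both strands for the AP-1 motif with the letters TGANTCA. The other motifs searched were the TATA box, spelled TATAAA, the GATA factor motif with the letters AGATAA, and the cAMP response element (CRE), with the letters TGACGTCA. TATTTAA was added after the Il1rl1 sequence had been seen. The shares of all 33469 rat promoter windows in RefSeq holding a match were 6.34% for AP-1, 12.9% for the TATA box, 10.3% for the GATA motif, 1.59% for the CRE and 4.16% for TATTTAA. The Il1rl1 window held no AP-1 match, while matches stood in the windows of Il1a and Myd88.

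The stretch from position -45 to -16 is printed for Il1rl1 and for its neighbours Il1rl2 and Il1r1, since the first pair had lower counts with HNG and Il1r1 had higher counts. Capitals mark TATTTAA.
Il1rl1 (chr9:50203593-50203622): caagacatctgtgTATTTAAaaagagagcg
Il1rl2 (chr9:50087507-50087536): atgatctggggcaTATTTAAgccgacattc
Il1r1 (chr9:50034338-50034367): ccaggccagctcgctagagccagaggctca
The same 7 letters stood at the same distance from the start in Il1rl1 and Il1rl2, and not in this stretch of Il1r1. On the plus strand, with a first base between -34 and -24, TATTTAA occurred in 48 of 33469 windows (0.143%). These letters were chosen after the sequences had been seen, and which start the cells used was not measured.

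Total counts per library ranged from 33009768 to 38322354 in the AngII group, from 27960586 to 37910135 in the AngII+HNG group and from 28514441 to 37461842 in the AngII+MOTS-c group. A count of 3, taken as the floor of detection, corresponded to between 0.0783 and 0.107 CPM (counts scaled to the library total). TMM factors were left out of this floor, whereas the CPM levels of genes given below include them. No library stood apart, since the root mean square distance to the other libraries of its group lay between 0.303 and 0.363 on the log2 CPM scale over 14686 genes. All 12 fibroblast markers were detected in every group, and their summed level was 72729 to 80439 CPM. The libraries of a group are described as biological replicates, but the sources used here do not say whether they came from separate isolations of cells, and replicates 2 and 3 of each group share a number in their library names, so they may have a common origin. The p-values and SDs over 4 libraries therefore measure the spread between these libraries, which may be partly technical.

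Il1rl1 was lower in all 4 AngII+HNG libraries than in any other library. Its level was 196, 194, 198 and 179 CPM in the AngII libraries (replicates 1 to 4), 122, 110, 109 and 107 CPM in the AngII+HNG libraries, and 207, 177, 205 and 177 CPM in the AngII+MOTS-c libraries. The HNG values did not overlap with those of either other group, whereas the AngII+MOTS-c values lay on both sides of the AngII values, 2 above and 2 below them, around the same mean and with a wider spread. The group means were 192 ± 8.88 CPM with AngII, 112 ± 6.83 CPM with AngII+HNG and 191 ± 16.7 CPM with AngII+MOTS-c (SD, n = 4). The fitted level with HNG was 41.6% lower than with AngII alone (log2 fold change -0.78, SE 0.0494) and 41.5% lower than with MOTS-c (log2 fold change -0.77, SE 0.0629). Among 14524 genes tested, 62 (0.427%) had a log2 fold change as low as this or lower in the comparison of HNG with AngII. In RNA from whole cultures, fewer cells that express a gene and less RNA per cell cannot be told apart.

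Il1r1, the signalling receptor for interleukin 1, lay on the other side. It stood at 299, 296, 296 and 310 CPM with AngII, at 376, 380, 342 and 392 CPM with AngII+HNG, and at 313, 309, 316 and 320 CPM with AngII+MOTS-c. All 4 HNG libraries were above all 8 others, and their mean of 372 ± 21.4 CPM (SD, n = 4) compared with 300 ± 6.32 CPM in the AngII group. The log2 fold change was 0.31 (SE 0.0436) over AngII and 0.24 (SE 0.0445) over MOTS-c. Il1rl1 and Il1r1 were the 2 of 8 members past the filter on low counts that had an edgeR adjusted p under 0.05 in the comparison of HNG with AngII, where 5.98% of all 14524 genes passed. They were also the 2 whose groups did not overlap, against 13.6% of all genes. Il1rap lay just outside the threshold in this fit and inside it with DESeq2, RLE size factors, a minimum of 10 counts in every library, a replicate block, or replicates 2 and 3 summed. Il1rl1 was picked from this comparison, so nothing is read from these counts. The same 2 members passed in HNG against MOTS-c, where 4.41% of 14448 genes passed and the groups of 12.5% did not overlap.

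**Figure D1:**
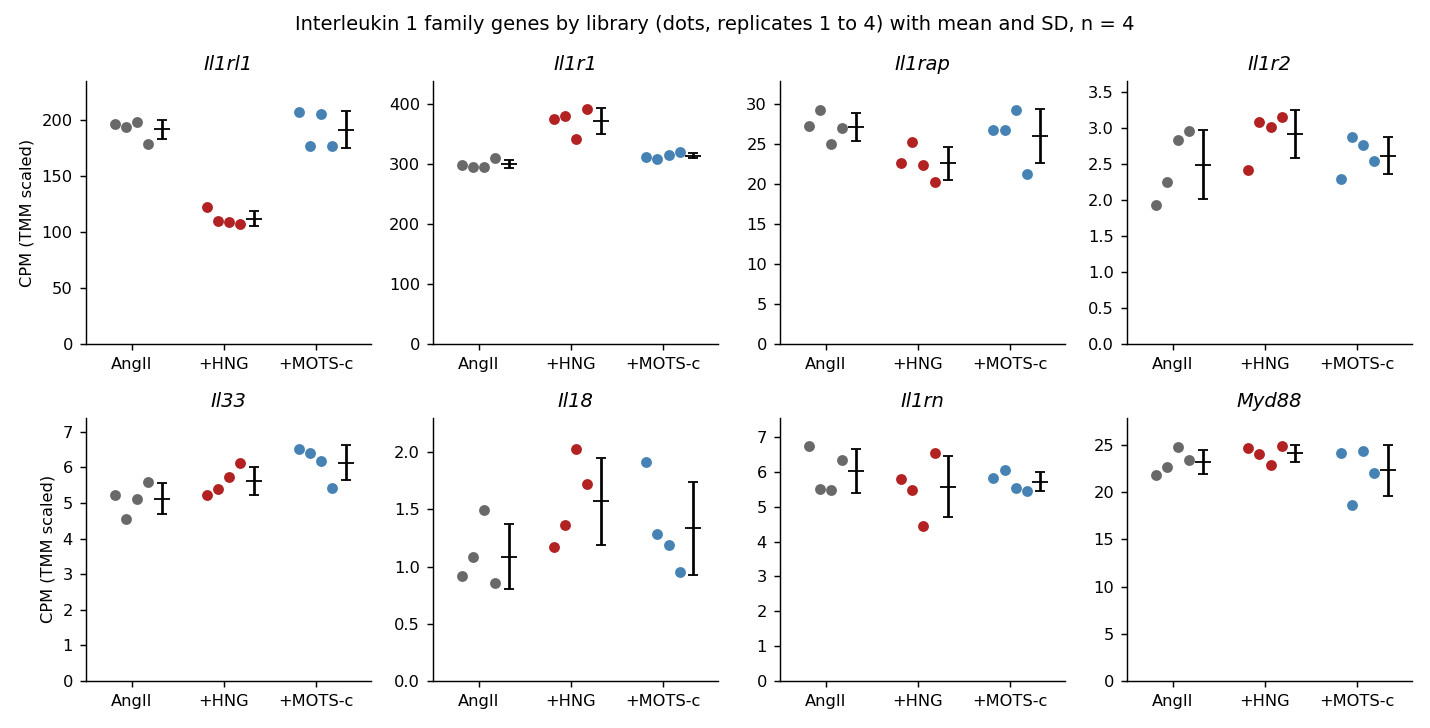
Level of 8 interleukin 1 family genes in CPM (vertical axes from 0) in each library of the AngII, AngII+HNG and AngII+MOTS-c groups; dots are libraries in the order of replicates 1 to 4, and bars beside them give the mean and SD (n = 4). The HNG libraries of Il1rl1 (107 to 122 CPM) lie below all others and those of Il1r1 (342 to 392 CPM) above all others, while the groups of the remaining 6 genes overlap.

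Cells other than fibroblasts can carry these receptors, so their markers were measured in the same libraries. Mast cells and type 2 innate lymphoid cells are the classical carriers of ST2. Of 10 mast cell markers, 8 had at most 3 counts in every library (Cpa3, Tpsab1, Tpsb2, Mcpt2, Cma1, Ms4a2, Fcer1a and Gata1), and 5 of them were at 0 throughout. The summed mast cell list was 14 to 16.1 CPM with AngII, 16 to 19 CPM with AngII+HNG and 14.4 to 15.6 CPM with AngII+MOTS-c. Nearly all of this was Kit, at means of 14.9, 17.3 and 14.6 CPM in the same order. It did not pass with HNG against AngII (edgeR adjusted p = 0.122) or against MOTS-c (edgeR adjusted p = 0.0752), where DESeq2 called 1 gene of this list. Of 11 markers of T cells and type 2 innate lymphoid cells, Cd3e, Cd3g, Cd3d, Il5 and Il13 had at most 3 counts in every library. The summed level of that list was 42.7 to 47 CPM with AngII, 37.6 to 45.2 CPM with AngII+HNG and 41.7 to 42.9 CPM with AngII+MOTS-c. Gata3, a transcription factor on that list that is known to act on Il1rl1 in T cells, stood at 13.6, 13.8, 13.7 and 13.9 CPM with AngII, at 11.3, 11.4, 11.8 and 10.4 CPM with HNG and at 12.8, 12.6, 12.7 and 13.2 CPM with MOTS-c. In CPM the MOTS-c libraries lay between the other groups without overlap. Groups did not overlap for 13.6% of all genes with HNG against AngII, 3.44% with MOTS-c against AngII and 12.5% with HNG against MOTS-c. In the deposited FPKM values, which also depend on transcript length, HNG (2.63 to 3.7) overlapped with AngII (3.54 to 4.1) and with MOTS-c (3.11 to 3.49). Gata3 fell by 0.29 on the log2 scale with HNG against AngII (SE 0.0689, edgeR adjusted p = 0.026), and its differences of -0.19 for HNG against MOTS-c (edgeR adjusted p = 0.157) and -0.10 for MOTS-c against AngII (edgeR adjusted p = 0.924) did not pass. Of 6 genes of that list tested in HNG against AngII, 4 were lower and 2 higher, and only Gata3 passed. The higher ones were Cd8a, at a mean of 1.49 CPM with AngII and 2.33 CPM with HNG, and Cd4, at 25.5 and 25.8 CPM. Whether Gata3 acts on Il1rl1 in these cells was not tested.

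Markers of other cells moved with HNG against AngII as well, where 3.4% of all genes rose and 2.58% fell. Of 14 macrophage markers tested, Ptprc, Cd68 and Mrc1 rose and Cx3cr1 fell, and the summed level of the list was 197 to 239 CPM with AngII, 228 to 310 CPM with HNG and 196 to 231 CPM with MOTS-c. Of 11 endothelial markers, Kdr, Tek, Tie1 and Egfl7 rose and Flt1 fell, with sums of 134 to 148 CPM, 148 to 157 CPM and 135 to 142 CPM in the AngII, AngII+HNG and AngII+MOTS-c groups. Of 10 smooth muscle and pericyte markers, which activated fibroblasts also express, Myh11, Acta2, Cnn1, Tagln and Mcam fell, and the sums were 7272 to 7593 CPM with AngII, 5758 to 6354 CPM with HNG and 6867 to 7503 CPM with MOTS-c. Of 11 cardiomyocyte markers Tnni3 rose, with sums of 6365 to 7214, 6648 to 7784 and 5870 to 7641 CPM in the same order of groups. Of 8 mesothelial markers Upk1b rose, with sums of 60.4 to 72.3, 62.2 to 75.4 and 60.4 to 65 CPM. Of the 12 fibroblast markers Thy1 and Tcf21 rose. With HNG against MOTS-c, the markers that rose were Cd68, Mrc1 and Aif1 of macrophages, Tek and Tie1 of endothelium, Tnni3, Upk1b, Thy1 and Tcf21, and those that fell were Flt1, Acta2, Cnn1 and Mcam. The part of these cells in the levels of Il1rl1 and Il1r1 was not tested.

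Levels can be set against each other between genes only per length, for which the deposited FPKM values were used. With AngII alone Il1rl1 was the highest of the set at 65.8 ± 1.24 FPKM (SD, n = 4), followed by Il1r1 at 54.4 FPKM, and their libraries did not overlap. Myd88 stood at 10.2 FPKM, Il1rap at 4.16 FPKM and Il1rn at 2.94 FPKM, each apart from its neighbours in the order. Il1r2 and Il33, both at a mean of 1.71 FPKM, overlapped and could not be ordered. Il18 was at 0.556 FPKM, and Il1b and Il1a came last with overlapping libraries. With HNG the first and second places were exchanged, Il1r1 standing at a mean of 70 ± 4.90 FPKM and Il1rl1 at 38.7 ± 1.97 FPKM (SD, n = 4). With MOTS-c the order began as with AngII, Il1rl1 at 66.3 FPKM and Il1r1 at 57.2 FPKM.

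The ratio of Il1rl1 to Il1r1 in FPKM was 1.28, 1.18, 1.26 and 1.12 in the AngII libraries. With HNG it was 0.588, 0.538, 0.602 and 0.493. With MOTS-c it was 1.2, 1.09, 1.15 and 1.2. In FPKM the interleukin 33 receptor was above the interleukin 1 receptor in the 8 libraries without HNG and below it in the 4 with HNG. The value of AngII+MOTS-c replicate 4 rests on an Il1r1 level of 50.6 FPKM, the lowest of its group, while its 320 CPM was the highest. In replicate 3 of that group 316 CPM of Il1r1 gave 60.5 FPKM, and Il1rl1 in replicate 4 was 60.6 FPKM. With the Il1r1 length of the other libraries of its group the ratio of replicate 4 would thus be about 1, and its place among the 8 rests on this length. The ratio of Il1r1 to its decoy Il1r2 overlapped between the 3 groups, with means of 32.7 ± 5.85, 34.9 ± 5.36 and 32.1 ± 4.03 (SD, n = 4) for AngII, AngII+HNG and AngII+MOTS-c. Il1rl1 exceeded its co-receptor Il1rap 15.9 ± 1.03-fold in FPKM with AngII, 9.62 ± 1.56-fold with HNG and 16.2 ± 2.67-fold with MOTS-c (SD, n = 4). It exceeded its ligand Il33 39.8 ± 8.42-fold, 19.3 ± 1.84-fold and 30.7 ± 2.98-fold in the same order (SD, n = 4).

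**Figure D2:**
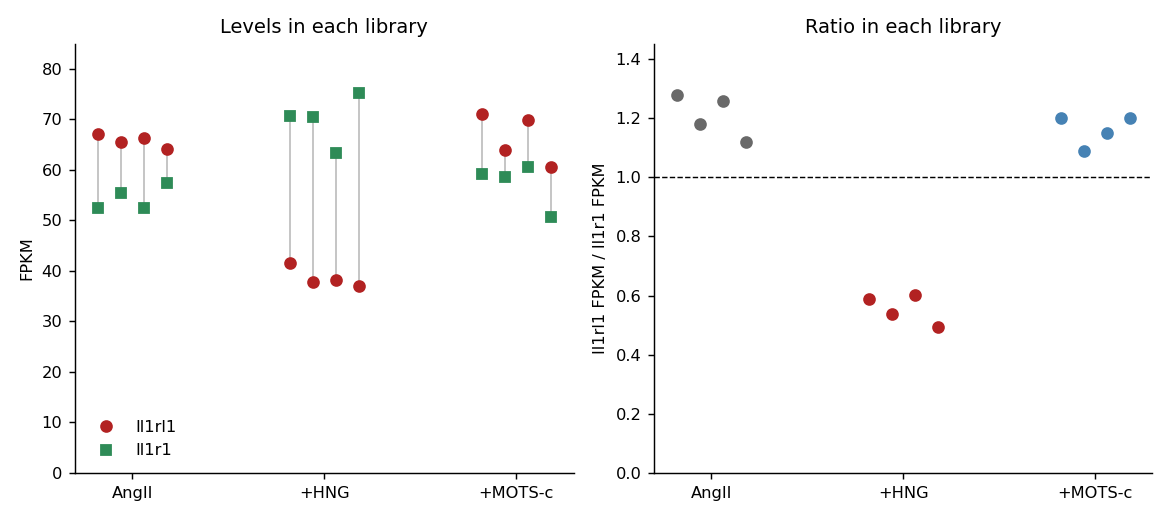
Left, level of Il1rl1 (circles) and Il1r1 (squares) in FPKM in each library, with a grey line joining the values of the same library; right, the ratio of Il1rl1 to Il1r1 in FPKM in each library, with a dashed line at 1. The ratio lies between 1.09 and 1.28 in the 8 libraries without HNG and between 0.493 and 0.602 in the 4 with HNG.

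The co-receptor Il1rap was read differently by the 2 kinds of value. In counts it stood at 27.2, 29.3, 25 and 27 CPM with AngII, at 22.6, 25.2, 22.4 and 20.2 CPM with HNG and at 26.8, 26.7, 29.3 and 21.2 CPM with MOTS-c. The HNG libraries were at the low end, but replicate 2 overlapped with the AngII range, and the log2 fold change over AngII was -0.26 (SE 0.0716), with a range of -0.32 to -0.21 when 1 library was left out. In FPKM, which also depends on the length used for the gene, the means were 4.16 with AngII and 4.07 with HNG, and the difference was -0.027 on the log2(FPKM + 1) scale.

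Counts and FPKM together give the mean transcript length with which each gene was scaled in each library. For Il1rap this length was 6550, 6686, 6443 and 6258 bases with AngII, 6444, 5690, 5036 and 5347 bases with HNG, and 7451, 6704, 5536 and 5570 bases with MOTS-c. The HNG libraries other than replicate 1 were below all AngII libraries, and the MOTS-c libraries overlapped with both other groups. For Il1rl1 the length was 2908, 2938, 2979 and 2752 bases with AngII, 2948, 2912, 2894 and 2905 bases with HNG, and 2914, 2773, 2927 and 2898 bases with MOTS-c, so that the groups overlapped. Il1r1 lay between 5210 and 5683 bases in 11 libraries and at 6277 bases in AngII+MOTS-c replicate 4. The length of Myd88 stayed nearly constant, as it did for Il1r2 and Il1rn, and of 10074 genes with at least 200 counts in every library 66.9% varied by a CV under 1%. How the length entered the FPKM values is not given in the sources used here, and the origin of its variation between libraries was not tested. Transcripts were not identified here, so the membrane and soluble forms of ST2 were not told apart.

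**Figure D3:**
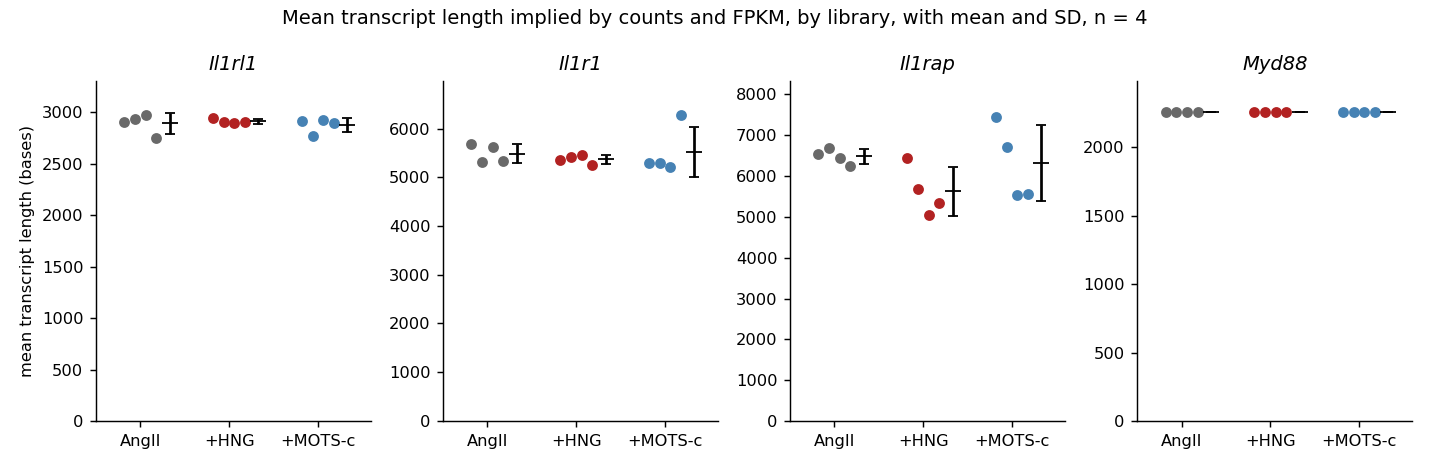
Mean transcript length in bases implied by counts and FPKM (vertical axes from 0) for Il1rl1, Il1r1, Il1rap and Myd88 in each library by group; dots are libraries, and bars give the mean and SD (n = 4). Il1rap ranges from 5036 to 7451 bases between libraries, while Il1rl1 stays between 2752 and 2979 bases.

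The ligands were present at low levels. Il33, which stromal cells keep in the nucleus and release on injury, stood at 5.23, 4.54, 5.11 and 5.6 CPM with AngII, at 5.23, 5.4, 5.74 and 6.13 CPM with HNG and at 6.52, 6.4, 6.17 and 5.42 CPM with MOTS-c. The 3 groups overlapped, and the HNG difference from AngII was 0.14 on the log2 scale (SE 0.103). Il18, a ligand matured by the inflammasome, stood at 0.92, 1.08, 1.49 and 0.853 CPM with AngII, at 1.17, 1.36, 2.03 and 1.72 CPM with HNG and at 1.91, 1.28, 1.19 and 0.95 CPM with MOTS-c, again with overlap. Its log2 difference with HNG was 0.54 with an SE of 0.233, between 0.40 and 0.72 when 1 library was left out (without AngII+HNG replicate 3 and AngII replicate 3), and 0.35 on log2(FPKM + 0.1) and 0.15 on log2(FPKM + 1).

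Il1a and Il1b, the interleukin 1 ligands themselves, did not pass the filter on low counts. Il1b had 0, 6, 7 and 15 counts in the AngII libraries, 0, 0, 4 and 0 in the AngII+HNG libraries, and 0, 2, 2 and 9 in the AngII+MOTS-c libraries. Il1a had 2, 1, 6 and 0 counts, then 2, 0, 4 and 4, then 6, 0, 0 and 4. Most of these values lie at or near the floor of 3 counts, and a difference in Il1a or Il1b was not tested.

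The decoy Il1r2 stood at 1.94, 2.25, 2.83 and 2.96 CPM with AngII, at 2.42, 3.09, 3.02 and 3.15 CPM with HNG and at 2.29, 2.88, 2.77 and 2.54 CPM with MOTS-c. The antagonist Il1rn ranged from 5.47 to 6.75 CPM with AngII, from 4.44 to 6.55 CPM with HNG and from 5.45 to 6.05 CPM with MOTS-c. The adaptor Myd88 ranged from 21.8 to 24.8, from 22.9 to 24.9 and from 18.6 to 24.4 CPM in the same order. The groups of all 3 genes overlapped, and their log2 differences between HNG and AngII were 0.23 (SE 0.161), -0.11 (SE 0.126) and 0.06 (SE 0.056). When 1 library was left out these lay between 0.13 and 0.33, between -0.20 and -0.019 and between 0.03 and 0.091. For the decoy, the antagonist and the adaptor, no treatment stood clear of the others.

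The comparison of MOTS-c with AngII used no library of the HNG group and was tested, although its AngII libraries are among those in which Il1rl1 was chosen, so it is not independent of that choice. No member passed the threshold in it, where 1 of 14488 genes passed in all (0.0069%). The unadjusted p was under 0.05 for 2 members, Il33 and Il1r1, and for 5.05% of all genes, DESeq2 called 4 genes and no member, and no member had groups that did not overlap (3.44% of all genes). For Il1rl1 the log2 fold change was -0.0053 with a 95% interval of -0.12 to 0.11 (edgeR adjusted p = 0.997), and its sign changed under other processing. For Il1r1 it was 0.066 with an interval of 0.0048 to 0.13 (edgeR adjusted p = 0.924). For Il33 it was 0.26 with an interval of 0.041 to 0.48 (edgeR adjusted p = 0.924), the AngII+MOTS-c libraries being above the highest AngII library in 3 of 4. The remaining 5 members lay between -0.074 and 0.31, and the interval for Il18, the highest of them, was -0.24 to 0.85. Il18 ranged from 0.078 to 0.49 when 1 library was left out and was 0.058 on log2(FPKM + 1). For the mean transcript lengths of Il1rl1, Il33, Il1r1, Il1rap and Il18, the smallest of 5 p-values of a two-sided exact permutation test was 0.4, all were 1 after Benjamini-Hochberg adjustment, and the design allows no p under 0.0286. The means for Il1rl1 were 2878 ± 71 bases with MOTS-c and 2894 ± 99 bases with AngII (SD, n = 4).

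**Figure D4:**
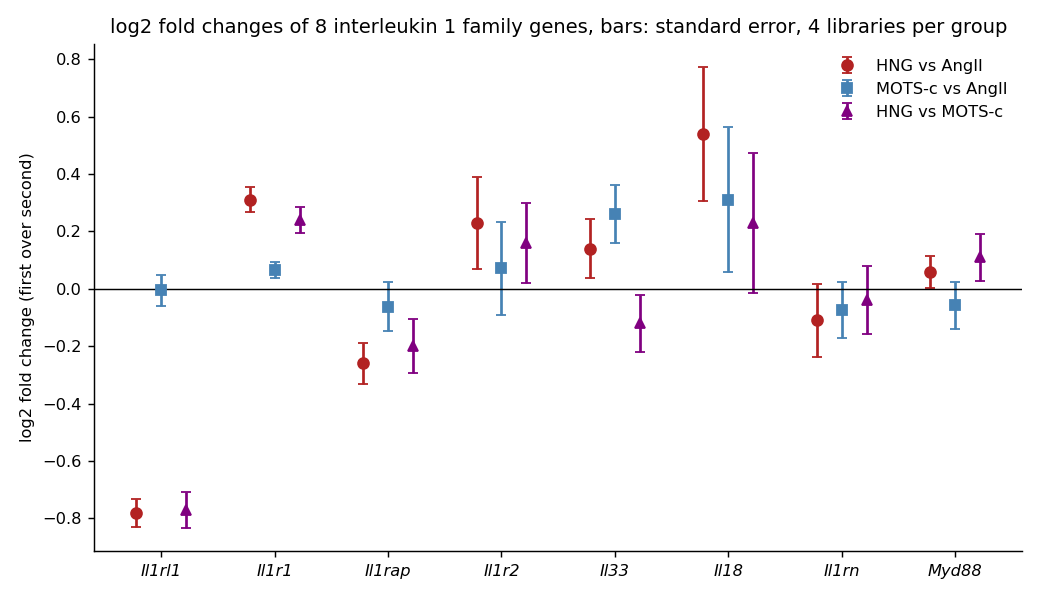
log2 fold change of 8 interleukin 1 family genes in HNG against AngII (circles), MOTS-c against AngII (squares) and HNG against MOTS-c (triangles), with bars for the standard error (4 libraries per group); the first 2 share the AngII libraries, and the comparisons with HNG are a description. Il1rl1 lies at -0.78 and -0.77 in the comparisons with HNG and at -0.0053 for MOTS-c against AngII.

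The receptor genes lie side by side on chromosome 9. In the order of protein-coding genes in RefSeq, Il1r2, Il1r1, Il1rl2, Il1rl1, Il18r1 and Il18rap follow each other, with H3f3al3, which was not found in the tables, between Il1r2 and Il1r1. Il1rl2, the interleukin 36 receptor and direct neighbour of Il1rl1, stood at 119, 121, 119 and 111 CPM with AngII, at 105, 96.7, 92.9 and 89.4 CPM with HNG and at 110, 117, 114 and 105 CPM with MOTS-c. The HNG libraries were all below the AngII libraries, and HNG replicate 1 reached the lowest MOTS-c library. Il1rl2 fell by 0.29 on the log2 scale with HNG against AngII (SE 0.0509, edgeR adjusted p = 0.00573) and by 0.22 against MOTS-c (SE 0.0537, edgeR adjusted p = 0.0399). The call against MOTS-c was lost in 6 of 8 fits that left out 1 library. On the other side of Il1rl1, the interleukin 18 receptor gene Il18r1 was near the floor, at 0.479 ± 0.180 CPM with AngII and 0.306 ± 0.139 CPM with HNG (SD, n = 4), and its log2 difference of -0.64 had an SE of 0.385 (edgeR adjusted p = 0.395). Il18rap was at 0.413 and 0.388 CPM. Outside the receptors, Map4k4, a kinase gene, had a log2 difference of -0.01 and Mfsd9 of 0.34 (edgeR adjusted p = 0.122), and Slc9a4 and Slc9a2 were at or near 0. Of the genes in this stretch, Il1rl2 and Il1rl1 were thus lower with HNG, and Il1r1 on their other side was higher.

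**Figure D5:**
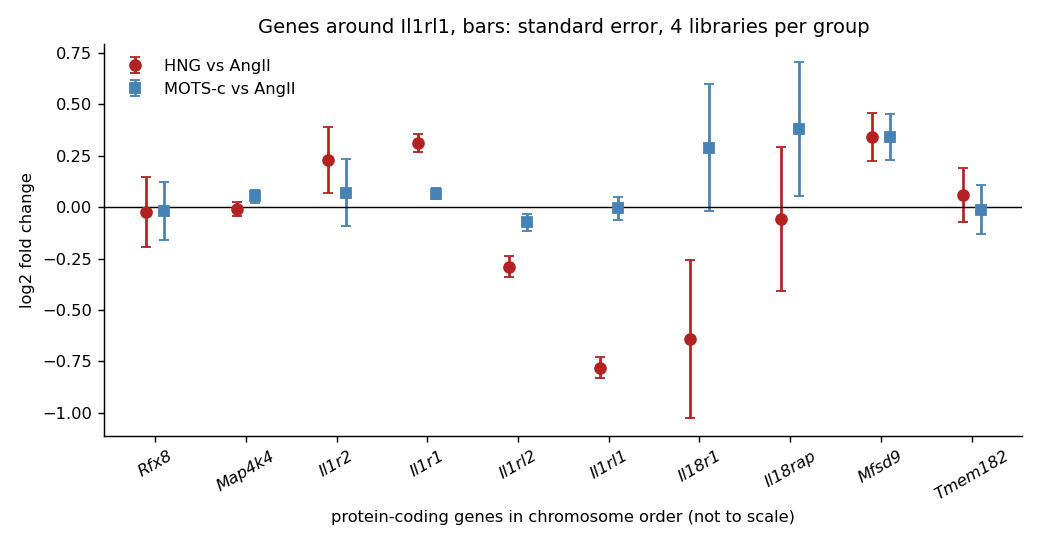
log2 fold change with standard error of the tested protein-coding genes around Il1rl1, in chromosome order and not to scale, for HNG against AngII (circles) and MOTS-c against AngII (squares), which share the AngII libraries (4 libraries per group). With HNG, Il1rl2 (-0.29) and Il1rl1 (-0.78) lie below 0 and Il1r1 (0.31) above it; the bars of Il18r1 and Il18rap are wide because both genes are near the floor.

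Beyond the set, 125 genes were taken in 8 lists, of which 7 hold genes of the interleukin 1 pathway and 1 the genes around the receptor cluster; they are called pathway genes together. With HNG against AngII 101 of them were tested, of which 2 rose and 5 fell, against 3.4% of all genes that rose and 2.58% that fell. Their median log2 fold change was -0.01, and that of all genes was 0.0043. Among the adaptors and kinases that act just below the receptors, 1 of 20 rose and 1 fell. Irak3, the inhibitory IRAK kinase, rose from 39.7 ± 2.51 to 50.1 ± 1.72 CPM (SD, n = 4), a log2 change of 0.34 (SE 0.0535, edgeR adjusted p = 0.00285). Peli1, a ubiquitin ligase that works with the IRAK kinases, fell from 22.3 ± 0.954 to 17.8 ± 2.11 CPM (SD, n = 4; edgeR adjusted p = 0.0293). Irak4, Traf6 and the other genes of this list did not pass.

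Further down the pathway, none of 17 NF-kB subunits and regulators, 12 p38 and JNK kinases or 9 AP-1 genes passed edgeR's test with HNG against AngII, where 3, 2 and 1 of them had an unadjusted p under 0.05 (20.3% of all genes) and DESeq2 called 1, 0 and 0. Of 15 inflammasome and cytokine processing genes, Txnip, which binds thioredoxin and is linked with NLRP3, rose by 0.24 on the log2 scale (SE 0.0477, edgeR adjusted p = 0.00922). Of 21 genes that interleukin 1 and NF-kB are known to induce, 3 fell and none rose. Among these were the monocyte chemokine genes Ccl2, from 52.3 ± 8.92 to 31.6 ± 9.42 CPM, and Ccl7, from 11.6 ± 0.930 to 8.55 ± 0.543 CPM (SD, n = 4). Their log2 changes were -0.72 (SE 0.186) and -0.44 (SE 0.0861), with edgeR adjusted p-values of 0.0387 and 0.00914.

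Irak3, Txnip, Ccl7 and Il1rl2 kept their calls in HNG against AngII whichever library was left out. Ccl2 lost its call without AngII replicate 1, 2 or 4 or AngII+HNG replicate 1 or 2 (edgeR adjusted p between 0.0588 and 0.116). Peli1 lost it without AngII replicate 1, 2 or 3 or AngII+HNG replicate 2 or 4 (0.0537 to 0.0917). Limma on FPKM ended the calls of Ccl2 and Peli1 at both pseudocounts.

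With HNG against MOTS-c 3 of 100 pathway genes rose and 3 fell, against 2.64% and 1.77% of all genes. Irak3 rose by 0.33 (SE 0.0511, edgeR adjusted p = 0.00318) on the log2 scale and kept this whichever library was left out. Mapkapk3, a kinase activated by p38, rose by 0.33 (SE 0.0779), and Ptges, which makes prostaglandin E, rose by 0.70 (SE 0.157). Il1rl2, Peli1 (log2 change -0.31, SE 0.0792) and Tab2, an adaptor of the kinase TAK1 (-0.18, SE 0.0383), fell. The call of Tab2 was lost without AngII+HNG replicate 4 or AngII+MOTS-c replicate 1, 2 or 3 (edgeR adjusted p between 0.0523 and 0.0602). That of Mapkapk3 was lost without AngII+HNG replicate 2 or 4 or AngII+MOTS-c replicate 1 or 2 (0.0717 to 0.108), and that of Ptges without AngII+HNG replicate 1 or 2 or AngII+MOTS-c replicate 1 or 3 (0.0546 to 0.0847). Il1rl2 lost its call without any library but AngII+HNG replicate 1 or AngII+MOTS-c replicate 4 (0.0611 to 0.122), and Peli1 without any but AngII+HNG replicate 1 (0.0681 to 0.114). Limma on FPKM ended the calls of Il1rl2 and Peli1 in this comparison (adjusted p between 0.129 and 0.153). With MOTS-c against AngII none of 100 pathway genes passed edgeR's test, 6 had an unadjusted p under 0.05, and DESeq2 called 0.

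The genes whose pattern was most like that of Il1rl1 were sought by Pearson's r of log2 CPM over the 12 libraries among 12371 genes that averaged 1 CPM or more. Of the 5 closest, Adarb1, an RNA-editing deaminase, had r = 0.99, and Fam107b, the metalloproteinase gene Adamts12 and Filip1l had r = 0.98 each. The most opposite were Akr1c15 (r = -0.99), the surface sialomucin gene Cd34 and the lysosomal glucosidase gene Gaa (r = -0.98 each), and Adamts5 and the lysosomal cathepsin gene Ctsa (r = -0.97 each). All 10 of these genes differed between HNG and AngII, so that these r mostly restate the gap between the HNG libraries and the rest. Adarb1, for example, stood at 187 ± 8.41, 129 ± 8.05 and 182 ± 13.7 CPM and Cd34 at 23.2 ± 1.75, 44.1 ± 2.32 and 20.9 ± 2.21 CPM with AngII, AngII+HNG and AngII+MOTS-c (SD, n = 4). With each group's mean removed, r was 0.89 for Adarb1 and -0.40 for Adamts5, and 0 of the 10 genes were among the 10 most alike.

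Within the set, Il1r1 had an r of -0.91 with Il1rl1 over the 12 libraries and -0.13 once group means were removed. For Il1rap these values were 0.69 and 0.42, and for Il33, the ligand of ST2, they were -0.049 and -0.12. The strongest relations left once group means were removed were those of Myd88 (0.60, against -0.24 over all libraries) and Il1r2 (-0.55, against -0.54). The libraries share their depth and scaling with each other, so these r are descriptions. The inverse relation of Il1rl1 and Il1r1 thus rests on the HNG libraries lying apart from the rest.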

How the data were processed

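mRNA libraries of the fibroblasts were sequenced by the authors, who deposited raw counts of reads for each gene (whole numbers) and FPKM values, in which these counts are divided by transcript length and library total. The submitters' processing notes name HISAT2, Picard 1.41 and SAMtools 0.1.18. The counting tool, use of strand, genome build and annotation are not given in the sources used here, so reads of overlapping genes on opposite strands could not be told apart. Libraries were grouped by sample title. Doses, times and the age of the animals come from the labels and the paper's methods.

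In R 4.3.3, edgeR 4.0.16 was run separately on the 8 libraries of each comparison (filterByExpr, TMM scaling, glmQLFit and glmQLFTest, Benjamini-Hochberg adjustment over all genes tested, threshold 0.05), after the method had been tested on simulated data. A member or gene is called where its adjusted p is under 0.05. CPM were scaled by TMM over 12 libraries, except for the floor of detection, and log2 CPM used a prior count of 2. Mean transcript length is the count divided by FPKM and library total. DESeq2 1.42.0 and limma 3.58.1 (on log2 FPKM plus 1 or 0.1) served as alternatives, and permutation tests used SciPy 1.17.1. Promoter windows come from RefSeq (GRCr8) and cover 9 of the 10 members, all but Il1r2. The gene order comes from the same assembly.

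The members, lists and tests were chosen with earlier results of these data known. Genes outside the set are named where they passed the threshold in a pathway list (at most 5, otherwise the 4 of largest change), where they were among the 5 most like or most opposite to Il1rl1, or where they lie next to it. Genes of the marker lists that passed in a comparison with HNG are named as well, and so are some that did not pass, where they describe a list. A gene past the threshold and a gene among the most like are not reported here.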

Additional observations from a re-analysis of the deposited data

Results flagged for a closer look

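Among 39 groups of 4 libraries checked over the members' levels and transcript lengths, 2 held a library whose gap to the nearest other took up most of the group's range, where chance gives about 1 in 20. In the AngII+MOTS-c group, the mean transcript length of Il33 was 3135 bases in replicate 1 and 2693 to 2756 bases in the others. In the same group, the length of Il1r1 was 6277 bases in replicate 4 and 5210 to 5295 bases in the others, and its FPKM there was 50.6 while its CPM of 320 was the highest of the group. The cause was not tested.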

How the results depend on the processing

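Over 9 alternatives the log2 fold change of Il1rl1 with HNG against AngII lay between -0.78 and -0.75, and that of Il1r1 between 0.31 and 0.36. For MOTS-c against AngII that of Il1rl1 turned positive on log2(FPKM + 1) (0.0076), on log2(FPKM + 0.1) (0.0077) and with replicates 2 and 3, which share a number in the library names, summed (0.0017). Leaving out 1 library gave it -0.045 to 0.031, Il1r2 -0.034 to 0.16, Il1rap -0.12 to 0.024 and Myd88 -0.10 to 0.023. Genes called with HNG against AngII numbered 577 with replicates 2 and 3 summed, and 431, 485 and 512 without AngII replicate 1, 2 and 3 (431 to 932 over all 8). Pathway genes called were 4 on log2(FPKM + 1), 4 without AngII replicate 1 or 2, and 4 to 7 over all 8. For MOTS-c against AngII the genes called were 4 with DESeq2, 0 in a fit of all 12 libraries, 0 with replicates 2 and 3 summed and 0 to 3 with 1 library left out (3 without AngII+MOTS-c replicate 1, 0 without any of the others), and pathway genes stayed at 0 in all of them. For HNG against MOTS-c they were 1034 with DESeq2 and 975 in the fit of all 12, and 416, 324, 322 and 389 without AngII+HNG replicate 2 and AngII+MOTS-c replicates 1, 2 and 3 (322 to 625 over all 8). Pathway genes called there were 3 with replicates 2 and 3 summed, 2 and 3 without AngII+HNG replicates 2 and 4, and 1, 2 and 2 without AngII+MOTS-c replicates 1, 2 and 3 (1 to 7 over all 8). DESeq2 also ended the call of Ccl2 with HNG against AngII (adjusted p = 0.0673, with 5.54e-04 to 0.0904 over the 9 alternatives), and summing replicates 2 and 3 those of Peli1 in both comparisons and of Il1rl2 and Ptges with HNG against MOTS-c. Where fewer libraries entered, fewer were available to the test; the cause of the other shifts was not tested.

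The replicate numbers are shared between groups, but the deviations of same-numbered libraries did not correlate at over 0.1 in every pair of any comparison. The main fits therefore left the number out, and whether same-numbered libraries share more than a number was not settled by this. The number of AngII+MOTS-c replicate 1 in its library name also differs from that of replicate 1 in the other groups, which leaves pairs that include it uncertain. The correlations of pairs 1 to 4 were -0.0755, -0.031, 0.0242 and 0.136 for HNG against AngII, 0.0288, 2.96e-05, 0.0686 and 0.119 for MOTS-c against AngII, and -0.014, 0.159, 0.0845 and 0.212 for HNG against MOTS-c. Own-number correlations were the best for 2 of 8 libraries for HNG against AngII, 4 of 8 for MOTS-c against AngII and 5 of 8 for HNG against MOTS-c. Under a replicate block the genes called were 1111, 2 and 1054, and the pathway genes 9, 0 and 10, in that order of comparisons.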
